A study of Mus musculus with 39 samples.

Results

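The thioredoxin system of the lung was followed through 10 genes: sulfiredoxin (Srxn1), the thioredoxin reductases Txnrd1, Txnrd2 and Txnrd3, the thioredoxins Txn1 and Txn2, the thioredoxin-interacting protein Txnip, and the peroxiredoxins Prdx1, Prdx5 and Prdx6. A gene was read through the probe sets that the array's annotation gives to its symbol alone, and among these through the one with the highest mean log2 signal over all 39 arrays. This gave 7 of the 10 genes, all of which passed the filter on dim probe sets and stood among the 13020 genes tested. The 5 probe sets of Prdx1 also carry the symbol Gm21399, so Prdx1 has no value of its own here, and Prdx5 and Prdx6 were not analysed here. No peroxiredoxin among the 10 was therefore measured.

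The animals were females of Crlj:CD1(ICR), an outbred mouse strain. They ate a powdered diet with permethrin, a pyrethroid insecticide, at 5000 or 10000 ppm, with isoniazid, an antituberculosis drug that the labels give as a positive control for tumours, at 2500 ppm, or with neither (control). Lungs were taken after 7 days, at an age of 11 weeks, or after 14 days, at 12 weeks, so age and duration cannot be told apart. There were 8 groups of 5 animals with 1 array each, and only permethrin 10000 ppm for 14 days had 4. The number of animals limits the precision. The comparisons ask which genes respond to each compound, and whether the response depends on the permethrin dose and on the time of feeding.

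Thioredoxins are small proteins that reduce disulfides in other proteins and are themselves reduced by the thioredoxin reductases, which are selenoproteins that draw on NADPH. Txn1 and Txnrd1 work in the cytosol, and Txn2 and Txnrd2 in mitochondria. Peroxiredoxins use thioredoxin to destroy peroxides, sulfiredoxin repairs peroxiredoxins whose active cysteine has been overoxidised, and Txnip binds thioredoxin and restrains it. In mouse and human cells Srxn1 and Txnrd1 are known targets of NRF2, a transcription factor that is stabilised under oxidative stress and acts through antioxidant response elements.

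3 promoters are shown, those of the genes that changed and, for contrast, that of the thioredoxin Txn1, which did not pass the threshold. The sequences are from RefSeq on build GRCm38.p6, from 250 bases before the start of the gene to 50 after it, 5′ to 3′ on the gene's strand. Capitals mark matches to TGACNNNGC, the core of the antioxidant response element, or to TGANTCAGC, a form that AP-1 factors can also bind, each searched on both strands. For Txnrd1, RefSeq gives 3 starts, and the second is shown because only its window held a match.
Srxn1, chr2:152105274-152105573, plus strand: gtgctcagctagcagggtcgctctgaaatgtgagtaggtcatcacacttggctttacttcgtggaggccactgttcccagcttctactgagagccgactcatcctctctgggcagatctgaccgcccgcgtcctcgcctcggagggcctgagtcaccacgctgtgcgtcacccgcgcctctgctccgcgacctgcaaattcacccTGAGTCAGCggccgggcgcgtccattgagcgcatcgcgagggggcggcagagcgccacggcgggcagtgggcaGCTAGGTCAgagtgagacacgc
Txnrd1, second start, chr10:82858956-82859255, plus strand: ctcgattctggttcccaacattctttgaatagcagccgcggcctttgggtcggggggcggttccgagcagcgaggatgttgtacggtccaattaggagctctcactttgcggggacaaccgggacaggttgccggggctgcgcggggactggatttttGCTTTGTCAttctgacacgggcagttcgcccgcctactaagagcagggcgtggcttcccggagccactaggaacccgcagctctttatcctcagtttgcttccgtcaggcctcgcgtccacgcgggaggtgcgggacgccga
Txn1, chr4:57956362-57956661, minus strand: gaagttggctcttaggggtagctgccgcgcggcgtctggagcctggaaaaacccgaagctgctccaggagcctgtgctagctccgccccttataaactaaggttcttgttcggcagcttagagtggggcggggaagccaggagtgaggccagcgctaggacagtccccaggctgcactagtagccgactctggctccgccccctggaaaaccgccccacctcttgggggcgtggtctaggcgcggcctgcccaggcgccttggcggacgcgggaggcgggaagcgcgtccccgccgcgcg
The Srxn1 window held TGAGTCAGC, a match to the second motif whose first base lies 45 bases before the start, and on the opposite strand a match to the first, which reads GCTAGGTCA on the gene's strand, 29 bases after it. The Txnrd1 window held GCTTTGTCA, an opposite-strand match to the first motif, 92 bases before the start. Of the 9 promoter windows of the 7 measured genes, 2 held TGACNNNGC, which 12.4% of all 32851 windows in the table hold. 1 of the 9 held TGANTCAGC, against 1.19% of all windows. The motifs were chosen after the expression values were known, and a match describes letters in these windows only.

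Signals are on the log2 scale after quantile normalization, and a gene passed the threshold at an adjusted p under 0.05 in limma, adjusted over all 13020 genes. All p-values are two-sided. Against the control of the same day, 2 of the 7 genes rose with permethrin, Srxn1 and Txnrd1, and they did so at both doses and both times. Over all genes tested, 0.0922% rose at 5000 ppm for 7 days, 0.23% at 10000 ppm for 7 days, 0.123% at 5000 ppm for 14 days and 0.207% at 10000 ppm for 14 days. Averaged over both times 2 of the 7 rose at each dose, where 0.223% of all genes rose at 5000 ppm and 0.453% at 10000 ppm. None of the 7 genes fell in any of these comparisons. With isoniazid 0 of the 7 passed in limma at 7 or 14 days, where 0.0461% and 0.0307% of all genes did.

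Srxn1 lies at chr2:152105524-152111376. It rose at both permethrin doses, and its mean was higher at the higher dose. At 7 days the control lungs had 6.47, 6.35, 6.54, 6.41 and 6.41, the lungs at 5000 ppm had 7.24, 7.39, 7.28, 7.22 and 7.34, and those at 10000 ppm had 7.72, 8.03, 7.91, 8.50 and 8.01. The dose groups did not overlap. At 14 days the control lungs had 6.57, 6.10, 6.46, 6.49 and 6.17, the lungs at 5000 ppm had 7.36, 7.38, 7.31, 7.56 and 7.38, and those at 10000 ppm had 8.19, 8.45, 7.43 and 8.10. Every permethrin animal again lay above every control, but the third animal at 10000 ppm, with 7.43, lay within the range of the 5000 ppm group. In linear signal the means were 86.7 ± 4.47 in controls, 157 ± 7.73 at 5000 ppm and 267 ± 56.9 at 10000 ppm after 7 days (SD, n = 5 each).

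Against control, Srxn1 rose 3.03-fold at 10000 ppm for 7 days (log2 difference 1.60, SE 0.14, adjusted p = 1.08e-09 in limma, higher in 5 of 5 animals). At 5000 ppm for 7 days it rose 1.81-fold (0.86, SE 0.14, adjusted p = 0.0011 in limma). After 14 days the folds were 3.21 at 10000 ppm (1.68, SE 0.15) and 2.06 at 5000 ppm (1.04, SE 0.14). The effect after 14 days minus that after 7 days was 0.09 at 10000 ppm (95% interval −0.33 to 0.50) and 0.18 at 5000 ppm (−0.22 to 0.58), and neither difference passed the threshold. No gene of the 13020 passed in these comparisons of the times with limma, and 293 and 371 had an unadjusted p under 0.05. A whole lung holds many cell types, so more RNA per cell and more cells that carry the transcript cannot be told apart.

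For the step between the permethrin doses Srxn1 was the only gene called. Averaged over both times, Srxn1 was 1.62-fold higher at 10000 ppm than at 5000 ppm (log2 difference 0.69, SE 0.10, 95% interval 0.49 to 0.90, adjusted p = 0.000851 in limma), and all 9 animals at 10000 ppm lay above the 5000 ppm mean of their day. No other gene of the 13020 passed for this step, so 0.00768% of them were higher, and 436 genes had an unadjusted p under 0.05. When the model was fitted to the 4 permethrin groups alone, the difference was again 0.69, but the adjusted p was 0.0551. That Srxn1 alone passed does not show that its step differed from that of other genes.

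Within a single time the step of Srxn1 did not pass the threshold over all genes. At 7 days it was 0.74 (95% interval 0.46 to 1.03, adjusted p = 0.0836 in limma), and the exact two-sided permutation p for this 1 gene was 0.00794, the smallest that 5 against 5 animals allow. At 14 days it was 0.64 (0.34 to 0.95, adjusted p = 0.849 in limma), with an exact two-sided permutation p of 0.0159. Srxn1 was chosen for this step with earlier results of these data known. The permutation p-values are not adjusted for that choice and give no independent support. 0% of genes passed at either time, and 269 and 493 genes had an unadjusted p under 0.05. Of the alternative settings run, 19 of 23 at 7 days and 19 of 22 at 14 days did not pass either, with adjusted p-values of up to 0.986 and 1. Leaving out each animal in turn gave steps of 0.63 to 0.82 at 7 days and 0.51 to 0.85 at 14 days, of which 1 of 10 and 1 of 9 passed (adjusted p = 0.0308 and 0.00708 in limma). Both passed without the lowest animal at 10000 ppm, the first at 7 days and the third at 14 days, whose removal raises the step by construction.

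On the log2 scale the step of Srxn1 from 5000 to 10000 ppm minus its step from control to 5000 ppm was −0.26 over both times (95% interval −0.61 to 0.10, unadjusted p = 0.15 in limma, n = 9 or 10 animals a dose). The interval covers equal steps and an upper step smaller by 0.61. The change of the upper step from 7 to 14 days was −0.10 (−0.51 to 0.32).

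**Figure D1:**
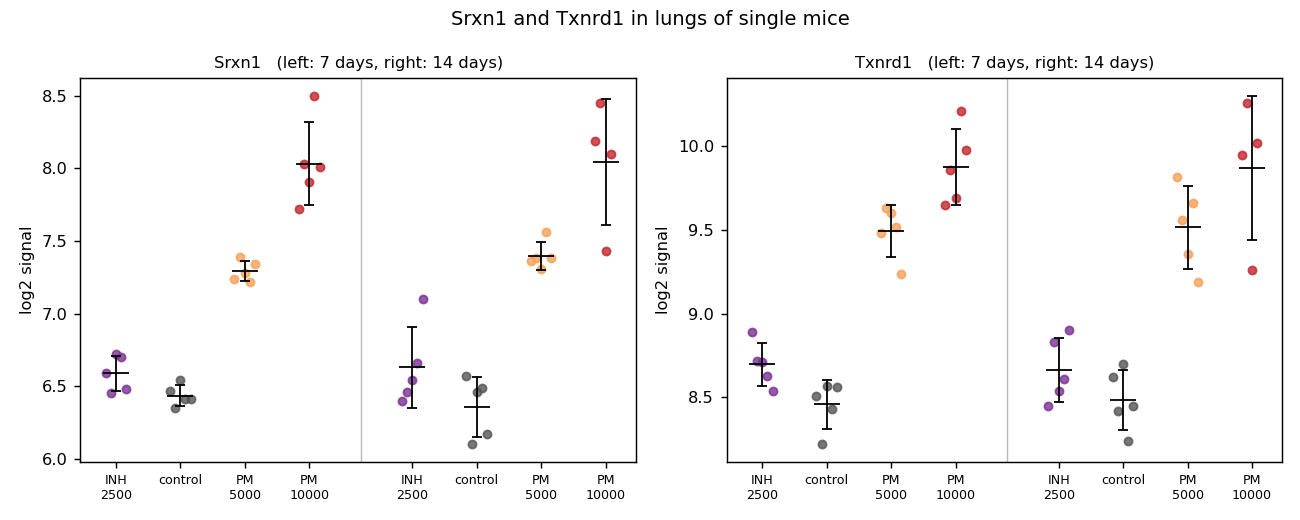
Log2 signal of Srxn1 (left panel) and Txnrd1 (right panel) in single lungs, with isoniazid (INH), control and permethrin (PM) groups in ppm along the horizontal axis. Points are animals and bars the mean and SD. Srxn1 in the permethrin lungs lies at 7.22 or above, and all controls lie at 6.57 or below.

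Txnrd1, the cytosolic reductase (chr10:82833951-82897724), rose at both doses, with most of the difference already present at 5000 ppm. Over both times it was 1.03 above control at 5000 ppm and 1.40 at 10000 ppm. For Srxn1 most of the difference was likewise present at 5000 ppm (0.95, against 1.64 at 10000 ppm). At 7 days the controls had log2 signals of 8.51, 8.22, 8.57, 8.43 and 8.56, the 5000 ppm lungs 9.48, 9.63, 9.60, 9.52 and 9.24, and the 10000 ppm lungs 9.65, 9.86, 9.69, 10.21 and 9.98. At 14 days the controls had 8.62, 8.42, 8.70, 8.24 and 8.45, the 5000 ppm lungs 9.82, 9.56, 9.36, 9.66 and 9.19, and the 10000 ppm lungs 9.95, 10.26, 9.26 and 10.02. No permethrin animal overlapped the controls. Between the doses the ranges just separated at 7 days, with a lowest value of 9.65 at 10000 ppm against a highest of 9.63 at 5000 ppm, and overlapped at 14 days.

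At 10000 ppm Txnrd1 was 2.68-fold above control after 7 days (log2 difference 1.42, SE 0.14, adjusted p = 9.35e-09 in limma) and 2.61-fold after 14 days (1.38, SE 0.15). At 5000 ppm it was 2.05-fold (1.04, SE 0.14) and 2.04-fold (1.03, SE 0.14) above control. The step from 5000 to 10000 ppm was 0.37 over both times (SE 0.10, 95% interval 0.17 to 0.57) and did not pass (unadjusted p = 0.000711, adjusted p = 0.999 in limma). It passed under 1 of 32 alternatives, without the third animal at 10000 ppm for 14 days, the lowest of its group (0.47, adjusted p = 0.0361 in limma). The upper step of Txnrd1 minus its lower step was −0.66 (−1.01 to −0.32, unadjusted p = 0.000381), which did not pass over all genes (adjusted p = 1 in limma). Whether the steps of Srxn1 and Txnrd1 differ was not tested.

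At 10000 ppm the same animals were extreme for both genes. After 7 days the fourth animal had the highest and the first the lowest signal of Srxn1 and of Txnrd1. At 14 days the second animal was highest and the third was lowest for both. At 5000 ppm for 14 days the extremes differed, with Srxn1 highest in the fourth animal and lowest in the third, and Txnrd1 highest in the first and lowest in the fifth.

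The Gapdh 3′ to 5′ ratio rises as RNA degrades, and high ratios stood beside both low and high signals. For Txnrd1, the lowest animal of each 14-day group other than isoniazid had a high ratio. The third animal at 10000 ppm for 14 days, with log2 signals of 7.43 and 9.26, had a log2 ratio of 1.29. The fourth at 5000 ppm for 14 days had a ratio of 1.45, the highest Srxn1 of its group (7.56) and a Txnrd1 of 9.66. The fifth of that group had a ratio of 1.34 and the lowest Txnrd1 (9.19). Among the 14-day controls the fourth had a ratio of 1.80 and the lowest Txnrd1 (8.24), with a Srxn1 of 6.49. The fifth with isoniazid for 14 days had a ratio of 1.87 and the highest Srxn1 (7.10) and Txnrd1 (8.90) of its group. The ratio exceeded 0.7 in 7 arrays, all of the 14-day groups (2 of permethrin 5000 ppm, 1 of permethrin 10000 ppm, 2 of isoniazid and 2 of control). Without these arrays Srxn1 was 1.73 above control at 10000 ppm and 0.92 at 5000 ppm (log2, mean of both times), its step was 0.82 (adjusted p = 4.71e-06 in limma), and the step at 7 and at 14 days passed as well. The arrays left out include the lowest animal at 10000 ppm for 14 days.

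**Figure D2:**
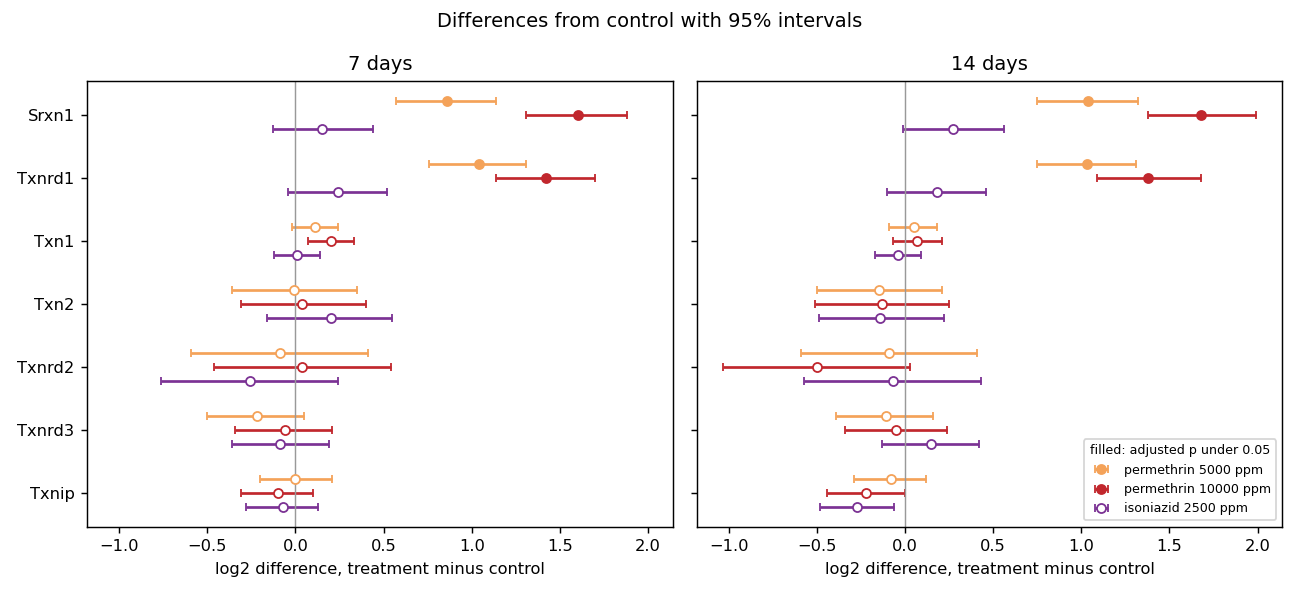
Log2 difference from the control of the same day for the 7 genes (vertical axis) at 7 days (left) and 14 days (right), with 95% intervals. Filled points passed the adjusted threshold. Srxn1 and Txnrd1 stand at 0.86 to 1.68 with permethrin, and no other point is filled.

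With isoniazid, Srxn1 and Txnrd1 lay slightly above control without passing. The Srxn1 log2 signals were 6.59, 6.45, 6.72, 6.70 and 6.48 at 7 days and 6.40, 6.46, 6.54, 6.66 and 7.10 at 14 days. The difference from control over both times was 0.21 for Srxn1 (95% interval 0.01 to 0.41, adjusted p = 0.513 in limma, above the control mean in 10 of 10 animals). For Txnrd1 it was also 0.21 (0.01 to 0.41, adjusted p = 0.5 in limma, above in 9 of 10), while 0.392% of all genes passed in this comparison. These intervals do not show that the genes were unaltered by isoniazid.

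Set against isoniazid directly, both genes were higher with permethrin. Srxn1 was 2.70-fold higher at 10000 ppm over both times (log2 difference 1.43, SE 0.10, adjusted p = 1.24e-12 in limma, 0.3% of all genes higher) and 1.67-fold higher at 5000 ppm (0.74, SE 0.10, adjusted p = 1.3e-05, again 0.3% higher). Txnrd1 was 2.29-fold higher at 10000 ppm and 1.77-fold higher at 5000 ppm. Both genes also rose at each time, where 0.177% and 0.169% of all genes did at 10000 ppm for 7 and 14 days and 0.0691% and 0.123% at 5000 ppm. The calls over both times held under every alternative run, while calls at single times were lost under some. With each array centred on its median, neither gene passed at 5000 ppm at either time (adjusted p of 0.0944 to 0.538 in limma). With only the compared groups in the model, neither passed at 14 days at either dose (adjusted p of 0.0526 to 0.192). For Srxn1 at 5000 ppm for 7 days (0.71, adjusted p = 0.0214 in limma), the call was also lost with every probe set tested (adjusted p = 0.0578). It was lost as well without any 1 of 6 animals, with permethrin the second, the third or the fifth and with isoniazid the first, the second or the fifth (0.67 to 0.71, adjusted p of 0.0568 to 0.0899). Doses of the 2 compounds differ, so the values stand for these diets only.

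The thioredoxins themselves passed in no comparison. Txn1, the cytosolic thioredoxin, had log2 signals of 11.73, 11.98, 11.95, 11.91 and 11.87 at 10000 ppm for 7 days, against 11.79, 11.70, 11.61, 11.60 and 11.73 in controls. The groups overlapped, although 5 of 5 treated animals lay above the control mean (difference 0.20, 95% interval 0.07 to 0.33, unadjusted p = 0.00338, adjusted p = 0.648 in limma). Over both times the difference at 10000 ppm was 0.14 (0.04 to 0.23, adjusted p = 0.393 in limma). Its probe set lies above 99.5% of all probe sets. With the deposited scaling the difference was 0.26, and with each array centred on its median 0.30, neither past the threshold. A second, dimmer probe set of Txn1 lay below control at 10000 ppm. Its means were 3.24 (SD 1.78) at 7 days and 4.04 (SD 1.53) at 14 days. Controls had 3.81 (SD 0.93) and 4.59 (SD 0.47). Txn2, the mitochondrial thioredoxin, differed from control by −0.15 to 0.20 over the 6 treatment groups, with group means of 7.25 to 7.45.

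The mitochondrial reductase Txnrd2 and the reductase Txnrd3, which is known from mouse testis, also passed nowhere. Txnrd2 had log2 signals of 4.91, 5.44, 5.51 and 4.95 at 10000 ppm for 14 days, against 5.55, 5.52, 5.73, 5.85 and 5.87 in the 14-day controls. These ranges did not overlap, yet the difference of −0.50 had an interval of −1.03 to 0.03 (adjusted p = 0.855 in limma), and the 7-day controls lay at 4.62 to 5.78. The other 3 probe sets of Txnrd2 differed there by −0.08, 0.35 and 0.06. Txnrd3 had log2 signals of 6.91, 6.83, 6.93, 6.73 and 6.58 at 5000 ppm for 7 days, against 6.99, 7.09, 7.02, 6.97 and 7.02 in controls. The ranges did not overlap, but the difference was −0.22 (−0.50 to 0.05, adjusted p = 1 in limma), and at 10000 ppm for 7 days it was −0.06.

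Txnip, the inhibitor of thioredoxin, did not pass, and its size at 14 days depended on the scaling. The isoniazid lungs had log2 signals of 11.45, 11.23, 11.28, 11.07 and 10.91, against 11.42, 11.51, 11.62, 11.21 and 11.53 in controls. The groups overlapped, and all 5 isoniazid animals lay below the control mean (difference −0.27, 95% interval −0.48 to −0.06, unadjusted p = 0.0119, adjusted p = 0.742 in limma). The difference was −0.22 at 10000 ppm permethrin (unadjusted p = 0.0478, adjusted p = 0.819 in limma) and −0.08 at 5000 ppm. With the deposited scaling the differences were −0.13 with isoniazid, −0.08 at 10000 ppm and 0.06 at 5000 ppm, and with each array centred on its median −0.13, −0.02 and 0.06. At 7 days the 3 differences were between −0.10 and 0. The second probe set of Txnip differed by −0.13 with isoniazid at 14 days (−0.78 to 0.51). Of 9 alpha-arrestin and glucose-sensor genes listed with Txnip, 0 passed in any comparison with control, where 0.0307% to 0.499% of all genes did, so the count is near the background.

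**Figure D3:**
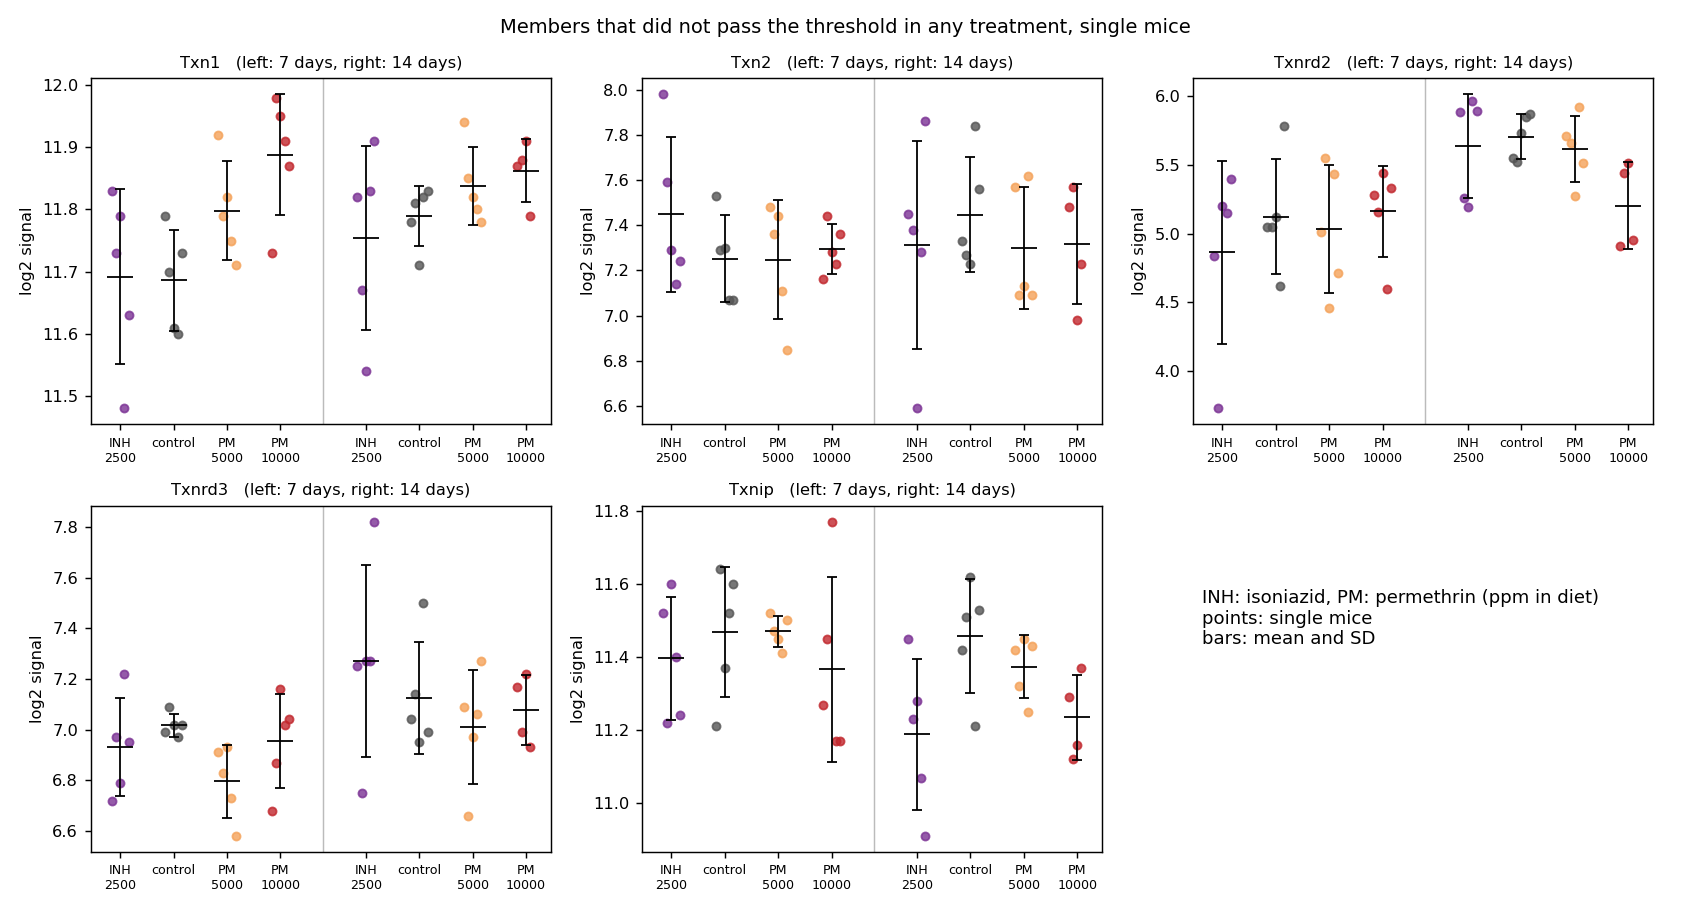
Log2 signal in single lungs of the 5 genes that did not pass the threshold, with isoniazid (INH), control and permethrin (PM) groups in ppm, points for animals and bars for mean and SD. The ranges of the treated and control groups overlap except for Txnrd2 at 10000 ppm for 14 days and Txnrd3 at 5000 ppm for 7 days.

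The other probe sets of the 2 responding genes were dimmer. For Srxn1 over both times, the second probe set differed from control by 1.41 at 10000 ppm (SE 0.22, adjusted p = 0.000218 over all probe sets in limma) and 1.0 at 5000 ppm (adjusted p = 0.0373). The next probe set differed by 1.29 (adjusted p = 0.00241) and 0.64 (not past the threshold). The dimmest differed by 0.43 and 0.09, neither past the threshold, and its direction differed between the times. At 7 days its means were 4.37 at 10000 ppm and 3.86 at 5000 ppm, above the 2.98 of controls. At 14 days they were 3.76 and 3.59, below the 4.28 of controls. The dose step in these 3 probe sets was 0.41, 0.65 and 0.34, and none of the 3 passed. For Txnrd1 the other probe sets differed by 0.98 and 0.84 at 10000 ppm, without passing.

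**Figure D4:**
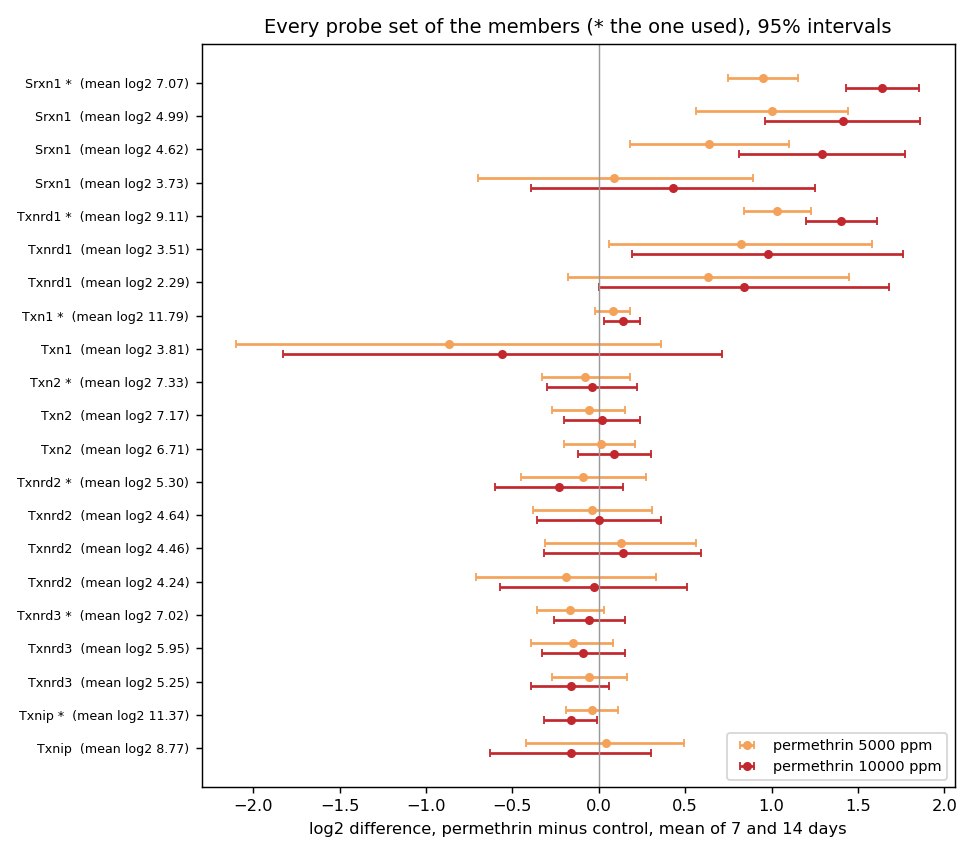
Log2 difference of permethrin 5000 ppm and 10000 ppm from control, mean of both times, for every probe set of the 7 genes, with 95% intervals and the mean log2 signal in parentheses. Intervals widen in the dim probe sets, and the first 3 of Srxn1 lie above 0 at both doses.

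Other NRF2 targets rose with permethrin too. The list was written with earlier results of these data known. Of its 31 tested genes, all outside the thioredoxin system, 17 rose at 10000 ppm for 7 days and 13 at 14 days. At 5000 ppm 8 rose at each time. Of all genes 0.23% and 0.207% rose at 10000 ppm for 7 and 14 days, and 0.0922% and 0.123% at 5000 ppm. None fell, and 0 of 31 passed with isoniazid at either time, where 0.0461% and 0.0307% of all genes did, so that count is near the background. With isoniazid 28 of the 31 differences were positive at 7 days (median 0.15, against 0.01 for all genes). At 14 days 17 were (median 0.04, against 0). The median log2 differences were 0.71 and 0.67 at 10000 ppm, where the medians of all genes were 0 and 0.02. Over both times at 10000 ppm, Gsta2, a glutathione S-transferase, rose 5.18-fold (2.37, SE 0.15), Aldh3a1, an aldehyde dehydrogenase, 5.70-fold (2.51, SE 0.21), and Nqo1, a quinone reductase, 3.53-fold (1.82, SE 0.17). Gstm1, another glutathione S-transferase, rose 1.65-fold (0.72, SE 0.07). At 5000 ppm over both times, Gpx2, a glutathione peroxidase, rose 2.48-fold (1.31, SE 0.16), and Ephx1, an epoxide hydrolase, rose 1.57-fold at 7 days (0.65, SE 0.11).

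For the step between the doses, 0 of these 31 genes passed, although 30 of 31 differences were positive (median 0.22, against 0.02 for all genes). Aldh3a1 had a larger step than Srxn1 (0.87, SE 0.21, adjusted p = 0.614 in limma) and Gsta2 one of similar size (0.67, SE 0.15, adjusted p = 0.502), each with a wider error than the 0.69 ± 0.10 (SE) of Srxn1.

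**Figure D5:**
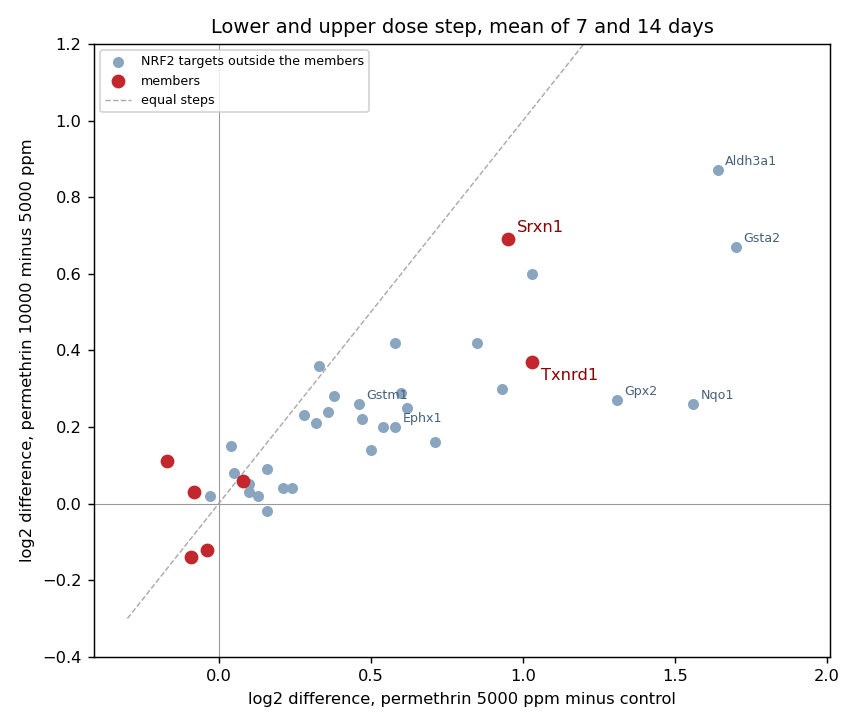
Lower dose step (horizontal axis, permethrin 5000 ppm minus control) against upper dose step (vertical axis, 10000 ppm minus 5000 ppm), log2, mean of both times, for the 7 genes (red) and 31 other NRF2 targets (blue). The dashed line marks equal steps. Srxn1 lies at 0.95 and 0.69, Txnrd1 at 1.03 and 0.37, and Aldh3a1 at 1.64 and 0.87.

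A list of other thiol redox genes held thioredoxin-fold, peroxiredoxin and glutaredoxin genes, among them Prdx2, Prdx3 and Prdx4, and also methionine sulfoxide reductases and sestrins. Of its 33 tested genes, all outside the 7, 0 passed in limma in any comparison with control. With 0.0307% to 0.499% of all genes passing in these comparisons, a count of 0 is near the background. At 10000 ppm over both times their differences ran from −0.43 to 0.24 with a median of 0.03. Prdx2, Prdx3 and Prdx4, named after their values were seen because no listed peroxiredoxin could be read, differed there by 0.03, 0.09 and 0.14. Of 9 genes listed as thioredoxin clients and regulators, 1 passed, the p53-inducible Trp53inp1 with isoniazid over both times (0.42, SE 0.09, adjusted p = 0.0209 in limma), where 0.392% of all genes passed. Its place in the list does not tie this change to thioredoxin. The list holds Nfe2l2, which encodes NRF2, and its inhibitor Keap1, which differed by −0.06 and 0.11 at 10000 ppm over both times without passing. They too were named after their values were seen.

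Across the 8 group means, the genes whose pattern was most like that of Srxn1 were Aldh3a1 (Pearson r 0.993), the carbonyl reductase Cbr1 (0.986), the efflux transporter Abcc3 (0.986), Txnrd1 (0.985) and the carbonyl reductase Cbr3 (0.984). For Txnip they were Fam222b (0.978), Epm2aip1 (0.975), Lrat (0.975), H2bc21 (0.97) and Creb1 (0.969). These are the highest of 13020 values over 8 points that share arrays and controls, and they are given as descriptions.

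Markers of lung cells and of other tissues were set beside the results. All 6 club cell markers were measured, and their mean log2 signal ran from 10.88 to 12.01 at 10000 ppm and from 11.63 to 11.93 at 5000 ppm after 14 days, and from 10.94 to 11.95 with isoniazid, against 10.63 to 11.77 in controls. The means there were 11.76 at 5000 ppm, 11.69 at 10000 ppm and 11.68 with isoniazid, against 11.12 in controls. At 7 days it ran from 11.80 to 11.86 at 10000 ppm and from 11.66 to 11.93 at 5000 ppm, against 11.00 to 11.94. Cardiac muscle genes, of which 14 of 15 passed the filter, averaged 7.61 at 5000 ppm, 7.72 at 10000 ppm and 7.74 with isoniazid at 14 days, against 6.80 in controls. Brown fat genes, of which 5 of 8 passed the filter, averaged 4.50 at 5000 ppm, 5.46 at 10000 ppm and 4.80 with isoniazid at 14 days, against 3.95 in controls. The highest of these arrays, with 7.29, was the second animal at 10000 ppm, which was also highest of its group for Srxn1 and Txnrd1, while the lowest brown fat score of that group, 3.61, was in the fourth animal. With cardiac, liver and brown fat scores as covariates, Srxn1 was 1.59 above control at 10000 ppm and 0.86 at 5000 ppm (log2, mean of both times), and Txnrd1 was 1.37 and 0.97 above. The part of club cell content in the results was not tested.

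Of 14 clock genes tested, Tef (0.67, SE 0.13) and Per3 (1.05, SE 0.22) rose and Npas2 (−1.13, SE 0.26) fell with isoniazid over both times, where 0.392% of all genes passed, and the other 11 did not pass. With permethrin 0 of 14 passed at any dose or time, where 0.0922% to 0.499% of all genes did, so the count is near the background. At 10000 ppm for 7 days their differences ran from −0.71 to 1.42 (median 0.33, against 0 for all genes). A clock score, the mean log2 signal of 5 clock genes minus that of 3 others, stood higher in some groups. At 7 days it averaged −0.37 at 5000 ppm, 0.76 at 10000 ppm and 1.30 with isoniazid, against −0.74 in controls, and at 14 days −0.15, −0.12 and 1.45, against −0.25. With the score as covariate the step of Srxn1 at 7 days was 0.67 (adjusted p = 0.603 in limma), against 0.74 without it. Over both times, with this covariate, the step of Srxn1 was 0.66 (adjusted p = 0.00298 in limma).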

How the data were processed

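The authors deposited MAS5 signals, an intensity on a linear scale for every probe set of each array. MAS5 is named in the submitters' processing notes, with no version given in the sources used here. Per the labels' protocols, a 3′ in-vitro-transcription kit turned total lung RNA into biotin-labelled cRNA. Each of 39 arrays holds 1 animal, so p-values measure the spread between animals. Groups and replicate numbers follow the titles. Pairs of arrays correlated at 0.862 to 0.945 over all probe sets, and no pair was identical. The deposited arrays share a trimmed mean of 100, while their medians ran from 17.4 to 26.2.

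Quantile normalization was applied to the log2 of the deposited values, without a pseudocount. This removes any change shared by most genes. Gene names come from the platform annotation. Each gene was read by its brightest probe set of that symbol alone. Genes were tested where its mean was in the upper 60% of probe sets other than controls (log2 of at least 3.43), which left 13020. A model of 8 group means was fitted to all arrays with limma 3.58.1 in R 4.3.3 (empirical Bayes with a mean-variance trend; the data.table package, version 1.17.8). P-values are two-sided with Benjamini-Hochberg adjustment over the 13020 genes of each comparison, and the threshold was 0.05. Single-gene permutation tests were exact. The model was tested on simulated data. Of 50 genes given a log2 effect of 0.5 at 10000 ppm, 38% were recovered against control at 7 days and 34% at 14 days. For the dose step over both times 52% were recovered. With an effect of 1 the shares were 88%, 90% and 94%. A gene that did not pass may thus still have changed by a small amount.

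The members, lists and comparisons were chosen with earlier results of these data known. The rule for names takes the 10 members, up to 4 genes of smallest p among those past the threshold per list and comparison with control, and the 5 genes most correlated with Srxn1 and with Txnip over the group means. Alternatives were other scalings, a pseudocount of 4, other filters, every probe set, only the compared groups, a replicate block, array weights, leaving out arrays of high 3′ to 5′ ratio, tissue and clock scores as covariates, no trend, and leaving out each animal. Depth does not apply to arrays.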

Additional observations from a re-analysis of the deposited data

Results flagged for a closer look

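Each of the 7 genes was searched in each of the 8 groups for an animal far from the rest of its group, by Dixon's test at the 95% level. Of these 56 groups 0 held such an animal, where chance gives about 2.8.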

How the results depend on the processing

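The counts of members past the threshold, 2 of 7 in each comparison of permethrin with control and 0 of 7 with isoniazid, were the same under every alternative run, and leaving out each animal in turn gave 2 to 2 and 0 to 0. The dose step of Srxn1 over both times was 0.69 with only the groups compared in the model, with an adjusted p of 0.0551 in limma, past the threshold no longer; the cause was not tested. Over its other alternatives its adjusted p went down to 4.12e-06, and leaving out each animal in turn gave 0.62 to 0.80. The Srxn1 step also passed with array weights, at 7 days (0.77, adjusted p = 0.000921 in limma) and at 14 days (0.77, adjusted p = 0.0405), and at 7 days with tissue scores as covariates (0.74, adjusted p = 0.0417). Of 13 single-gene differences that passed against control or between the doses, 12 lost their call under no alternative run. Of 12 that passed between permethrin and isoniazid, 6 lost it under none, and the other 6, all within a single time, lost it under 1 or more. None of these differences turned direction. The alternatives for permethrin against isoniazid, and for the dose step other than that of Srxn1 over both times, were chosen after seeing the data. Of 71 differences against control or between the doses that did not pass, 29 changed sign under some alternative, so their signs carry no weight. Other scalings moved the median of all genes by at most 0.05. Over all genes tested, the deviations of same-numbered animals correlated at −0.34 to 0.27, with 8 of 29 pairs over 0.1. Brown fat scores at 7 days, in order of number, were 6.57, 4.65, 5.69, 5.05 and 3.66 in controls. At 5000 ppm they ran alike, with 6.13, 4.86, 5.39, 5.39 and 3.34. At 10000 ppm they did not, with 5.84, 6.39, 5.18, 4.15 and 5.04, nor with isoniazid, with 4.36, 5.56, 5.64, 6.3 and 5.58. Whether the numbers mark a shared order or block cannot be told from these values. With the replicate number as a block the Srxn1 step was 0.70 and the counts of members called were again 2 with permethrin and 0 with isoniazid.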
